A study of Homo sapiens with 4 samples.

Results

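The proteasome genes were studied in U87, a cell line from a human malignant glioma, after knockdown of PTPRN. They were the genes whose symbol is PSM, a letter from A to G and a number, and 48 of the 19314 genes listed had such a symbol. Of these, 46 had a value and were tested, among 16595 genes tested in all. PSMA8, a testis form of an alpha subunit, and PSMB11, the catalytic subunit of the thymus, were listed without a value in all 4 libraries. There were 2 libraries of U87 cells with knockdown of PTPRN, labelled PTP2, and 2 control libraries labelled SCR. The study used short hairpin RNAs in the pLKO.1 vector, with a vector matching no human coding gene as the control, and the label PTP2 does not say which of its 2 hairpins was used. No library with a second hairpin was analysed here, so the effect of PTPRN and other effects of this hairpin cannot be told apart. Nothing in the labels says that replicates came from separate cultures, so the p-values measure only the spread between these libraries, which may be technical. In these bulk samples, fewer cells of a type and less RNA per cell cannot be told apart.

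The proteasome is the protease that degrades ubiquitin-tagged proteins in the cytosol and the nucleus. Its 20S core is a barrel of alpha and beta rings, and the 19S particle on its ends recognizes, unfolds and feeds in the substrates. The proteolytic sites lie in the beta subunits PSMB5, PSMB6 and PSMB7. After exposure to interferon, cells can build PSMB8, PSMB9 and PSMB10 into new cores in their place. This immunoproteasome and the PA28 activator of PSME1 and PSME2 favour peptides for presentation on MHC class I molecules. Glioma cells depend on proteasome activity as other dividing cells do.

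PTPRN itself had an FPKM of 12.1 and 11.7 in the knockdown libraries and of 84.8 and 85.0 in the SCR libraries. FPKM is the number of fragments of a gene scaled by its transcript length and by the fragments of the library, so levels can be compared between genes. The log2 fold change was -2.74 (SE 0.03, adjusted p = 1.48e-04, limma, where SE is the standard error). All fold changes are given as knockdown against SCR on the log2(FPKM + 1) scale, which understates the change of weakly expressed genes. The steps between low FPKM values gave an estimate of 17700000 to 19300000 reads per library. At this depth the proteasome gene with the fewest reads, PSMG4, had about 123 in its lowest library, and the next, PSMB9, about 331. The replicates had a Pearson correlation of 0.999 across genes in each group. The labels name U87, whereas hCMEC/D3, a brain endothelial line, is named in the growth protocol. Of 8 endothelial markers 0 reached an FPKM of 10, their sum was 3.89 to 4.45 in the 4 libraries, and CDH5, the endothelial cadherin, was at most 0.03. Of 8 glioma cell line markers, CD44, NES, S100A6, TNC and VIM reached an FPKM of 10 in at least 1 library, while the glial genes GFAP, SOX2 and OLIG2 stayed low, at 0.05 to 1.15.

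Most proteasome genes were higher after knockdown, and the immunoproteasome subunits were lower. Among the 46, 38 genes were higher and 3 lower when calls were made at an adjusted p of 0.05, and 5 did not pass. The 3 lower genes were PSMB8, PSMB9 and PSMB10. The median log2 fold change of the 46 genes was 0.46, against 0.01 for all genes tested and 0.11 for the 6257 genes whose mean FPKM reached 10, here called abundant. The calls must be read against a wide change of this transcriptome. At 0.05, 57.9% of all genes were called, 30.8% higher and 27.1% lower. Among the abundant genes, where 45 of the 46 lie, 47.1% were higher and 31.7% lower. Of those 45 proteasome genes, 37 were higher and 3 lower. The knockdown libraries lay wholly above the SCR libraries in 39 of the 46 genes and wholly below them in 7, and the groups overlapped in 0. Over all genes 75.6% did not overlap. Among the 6257 abundant genes, 3418 lay wholly above, 2347 wholly below and 492 overlapped, so such separation was common there. An exact permutation test of 2 libraries against 2 cannot go below p = 0.333 (two-sided), so the adjusted p-values lean on the variance that limma borrows from other genes.

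The summed FPKM of the 46 genes was 5331 and 5232 in the knockdown libraries, against 3660 and 3645 in the SCR libraries. This was about 1.2% of the total FPKM in each knockdown library, against 0.862% and 0.868%. The median proteasome gene had a mean FPKM of 63.5 with SCR and 88.9 with knockdown, while the median of all genes tested was 5.12 with SCR. Proteasome transcripts are short, with a median length of 1556 bases against 2793 for the abundant genes. Their median GC content was 49.5%, against 49.4%. Trends of each library on GC content and length were removed in a fit of the 11230 genes whose mean FPKM reached 1. In those genes with the trends kept, 37 proteasome genes were higher and 6 lower (43.3% and 35.3% of all genes in that fit), with a median of 0.46. With the trends removed, 28 were higher and 7 lower (38.8% and 38.5% of all), and the median was 0.28. PSMC6 was then among the lower ones. PSMB8, PSMB9 and PSMB10 were lower there too.

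**Figure D1:**
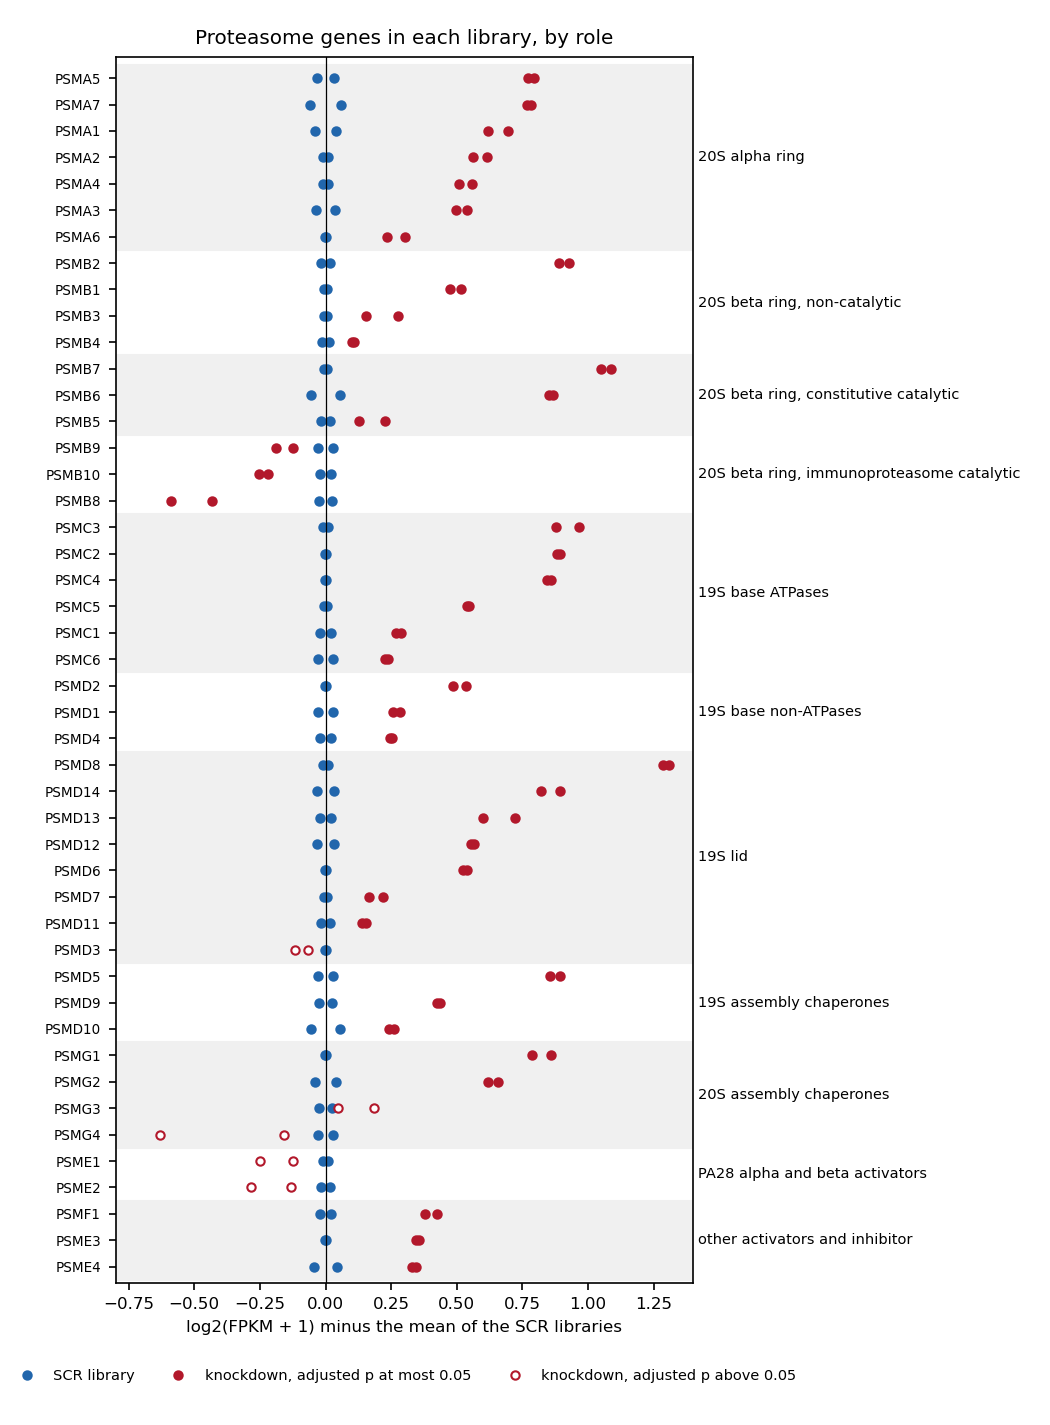
Level of each of the 46 proteasome genes in each library, as log2(FPKM + 1) minus the mean of the SCR libraries, grouped by role. Each point is a library, blue for SCR and red for knockdown, and open red points mark the 5 genes that did not pass an adjusted p of 0.05. The red points lie to the right of the blue ones in 39 genes and to the left in 7, among them PSMB8, PSMB9 and PSMB10.

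**Figure D2:**
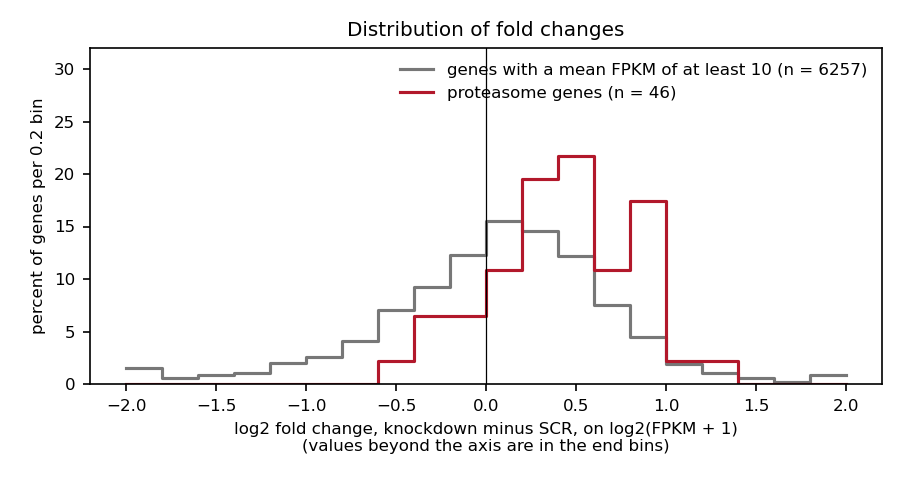
Share of genes per bin of 0.2 in log2 fold change (knockdown minus SCR on log2(FPKM + 1)), for the 46 proteasome genes in red and the 6257 genes whose mean FPKM reached 10 in grey. The medians are 0.46 for the proteasome genes and 0.11 for the abundant genes.

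The alpha ring forms the outer gates of the 20S core, and its 7 measured genes were all higher, as were 47.1% of the abundant genes. Their log2 fold changes ran from 0.27 (PSMA6) to 0.78 (PSMA5), with a median of 0.59. PSMA5 had an FPKM of 41.1 and 40.4 with knockdown and 23.9 and 22.7 with SCR (adjusted p = 6.29e-04, limma). PSMA7, the alpha gene with the highest level, had 354 and 357 against 216 and 199. PSMA6 moved least, with 142 and 135 against 115 and 114. PSMA6 was at -0.035 after removal of the GC and length trends and did not pass there, nor without SCR replicate 1 (adjusted p = 0.0809) or SCR replicate 2 (0.0826). Of the 4 beta subunits without a catalytic site, PSMB2 rose by 0.91 and PSMB1 by 0.49 on the log2 scale. PSMB2 had an FPKM of 71.4 and 69.6 against 37.6 and 36.6. PSMB4 was at the other end with 209 and 208 against 192 and 195, a log2 fold change of 0.11 (SE 0.03, adjusted p = 0.0455). Its call was lost under most alternatives, and it was -0.01 with quantile normalization and -0.11 without the GC and length trends.

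The 3 constitutive catalytic subunits were all higher, as were 47.1% of the abundant genes. PSMB7, which carries the trypsin-like site, had an FPKM of 469 and 457 with knockdown and of 219 and 222 with SCR. Its log2 fold change of 1.07 (SE 0.03, adjusted p = 3.36e-04) passed the thresholds stated in the study for differential genes, 2-fold or more with an adjusted p up to 0.001. PSMB6, with the caspase-like site, had 157 and 158 against 90.0 and 83.2, and a log2 fold change of 0.86 (SE 0.05, adjusted p = 8.64e-04). PSMB5, with the chymotrypsin-like site, had 128 and 119 against 111 and 108. Its log2 fold change was 0.18 (SE 0.05, adjusted p = 0.0425), and the call of PSMB5 was lost with a pseudocount of 0.1 (adjusted p = 0.0785), with each library left out and with other scalings of the libraries. Of the 3, PSMB5 had the smallest fold change. The differences between these genes were not tested.

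The immunoproteasome subunits moved the other way. PSMB8, which takes the place of PSMB5, had an FPKM of 37.1 and 33.1 with knockdown and of 51.2 and 49.4 with SCR. Both knockdown libraries lay below both SCR libraries, with a log2 fold change of -0.51 (SE 0.07, adjusted p = 0.00581). PSMB10, which takes the place of PSMB7, had 25.7 and 25.0 against 30.4 and 29.6, and a log2 fold change of -0.24 (SE 0.03, adjusted p = 0.00766). PSMB9, which takes the place of PSMB6, had 18.3 and 19.2 against 20.5 and 21.5. Its log2 fold change was -0.16 (SE 0.04; adjusted p = 0.0434), and it was -0.32 with GC and length trends removed, against -0.30 for PSMB10 there. The direction of all 3 was the same under each alternative that was tried, but the calls were not. Without SCR replicate 1 no proteasome gene was called lower, with an adjusted p of 0.103 for PSMB8, 0.119 for PSMB9 and 0.0577 for PSMB10 in limma. Without SCR replicate 2 there was 1, PSMB10, and PSMB8 had an adjusted p of 0.0903. Without knockdown replicate 1 there were 3 (PSMB8, PSME1 and PSME2) and without knockdown replicate 2 there were 2 (PSMB8 and PSMG4). With median-ratio or quantile scaling 6 were called lower, in fits where 29.1% and 27.0% of all genes were.

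Within a library, the level of each immunoproteasome gene can be set against the gene it replaces. PSMB8 was at 28.9% and 27.8% of PSMB5 in the knockdown libraries and at 46.3% and 45.8% in the SCR libraries. PSMB9 was at 11.7% and 12.1% of PSMB6, against 22.8% and 25.8%. PSMB10 was at 5.47% of PSMB7 in both knockdown libraries, against 13.9% and 13.4%. The groups did not overlap for any of these ratios, a separation that 75.6% of all single genes also showed. The log2 ratios differed by -0.69, -1.01 and -1.30 in the same order (knockdown minus SCR). For PSMB10 and PSMB9 more of this came from the rise of the constitutive gene, and for PSMB8 more came from its own fall. Taking the 3 pairs as a sum, the immunoproteasome genes made up 9.70% and 9.52% of the catalytic FPKM with knockdown and 19.6% in both SCR libraries. Scaling of a library as a whole cancels in these ratios, apart from the pseudocount.

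**Figure D3:**
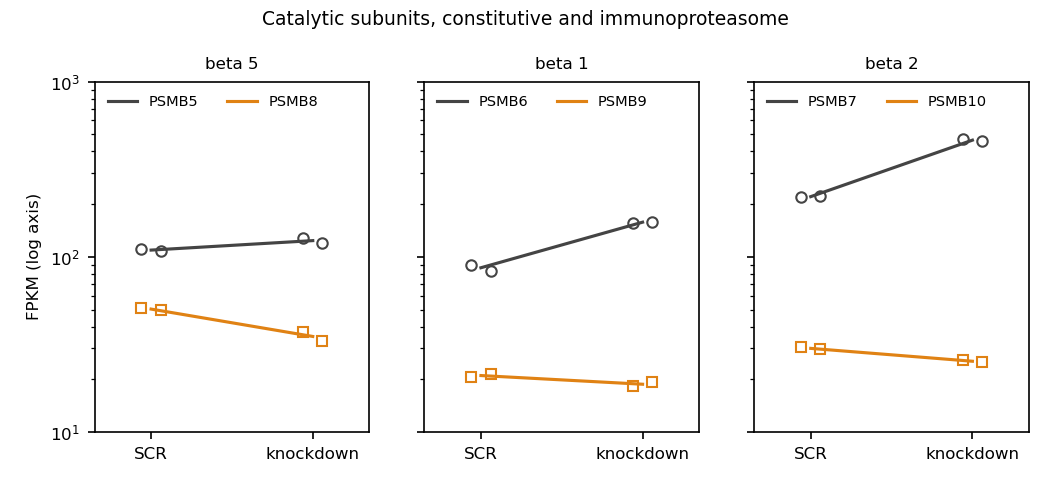
FPKM (log axis) of the constitutive catalytic genes (circles) and of the immunoproteasome genes that replace them (squares) in each library, with lines through the group means. PSMB7 rose from 220 to 463 while PSMB10 fell from 30.01 to 25.3, and the gap widened in each of the 3 pairs.

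PSME1 and PSME2, which encode the PA28 alpha and beta activator, followed the immunoproteasome genes in direction. PSME1 had an FPKM of 55.5 and 50.8 with knockdown and of 60.2 and 61.0 with SCR. PSME2 had 104 and 93.0 against 112 and 115. Their log2 fold changes of -0.19 (SE 0.05, adjusted p = 0.0511) and -0.21 (SE 0.06, adjusted p = 0.0601) did not pass 0.05 in limma. The groups did not overlap in either gene, which also held for 75.6% of all genes. Both passed with median-ratio scaling (adjusted p = 0.0328 and 0.0396). The other activators moved with the core. PSME3, the nuclear PA28 gamma, rose by 0.35 and PSME4, the PA200 activator, by 0.34, a call lost without knockdown replicate 1 (adjusted p = 0.0766) or knockdown replicate 2 (0.0808). PSMF1, which encodes the inhibitor PI31 and had the lowest SCR level of the measured genes, rose by 0.40, from a mean of 7.07 ± 0.163 (SD, n = 2) to 9.65 ± 0.240 (SD, n = 2).

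Immune cells build immunoproteasomes without stimulation, so their markers were examined beside these values. Of 10 immune markers 7 had a value, and their summed FPKM was 35.9 and 37.6 with knockdown and 86.2 and 86.1 with SCR. Nearly all of this was CD74 (29.3 and 31.4 against 68.9 and 69.9) and HLA-DRA (2.02 and 2.65 against 13.0 and 11.7), which serve MHC class II. PTPRC, the common leukocyte antigen, was at 0.82 and 0.86 with knockdown and at 0.40 and 0.73 with SCR. CD3E and AIF1 were among the 3 markers listed without a value. The part of such cells in the fall of the immunoproteasome genes was not tested.

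The 7 genes lower in both knockdown libraries were also compared by promoter sequence, in the windows of RefSeq (GRCh38.p14) from 250 bases before to 50 bases after each start. Of the 48 genes, 42 had at least 1 window, 51 windows in all. PSMA7, PSMB1, PSMB6, PSMB7, PSMD4 and PSMG3 had none. The core of the interferon-stimulated response element, GAAANNGAA on either strand, was in 15.7% of these windows and in 8.11% of all 35116 windows of the table. It was in 5 of the 7 genes below SCR (3 of these 7 passed 0.05) and in 3 of the 33 genes above SCR with a window. In those 5 genes, PSMB8, PSMB10, PSME1, PSME2 and the 20S assembly chaperone gene PSMG4, the letters were the same, GAAAGCGAA. This exact form was chosen after the matches were seen. It was in 94 windows of the genome-wide table (0.268%), and the 3 higher genes had other letters, with GAAAATGAA in PSMA4, GAAAAAGAA in PSMB4 and GAAAGGGAA in PSMC2. PSMB9 and PSMD3, the other lower genes, had no match in this window. A match is a description of the letters and not a site of binding. The stretches from 220 bases before to 30 bases after the start of the 5 genes are printed 5′ to 3′ along the gene, since they carry this shared run, which is in capitals (TTCGCTTTC is the same run on the other strand).

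PSMB8, chr6:32844018-32844267, minus strand: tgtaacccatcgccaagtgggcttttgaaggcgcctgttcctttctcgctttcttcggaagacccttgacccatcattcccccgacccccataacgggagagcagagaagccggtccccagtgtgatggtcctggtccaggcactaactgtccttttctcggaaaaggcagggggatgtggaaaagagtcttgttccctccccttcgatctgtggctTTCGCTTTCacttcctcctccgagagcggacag
PSMB10, chr16:67936821-67937070, minus strand: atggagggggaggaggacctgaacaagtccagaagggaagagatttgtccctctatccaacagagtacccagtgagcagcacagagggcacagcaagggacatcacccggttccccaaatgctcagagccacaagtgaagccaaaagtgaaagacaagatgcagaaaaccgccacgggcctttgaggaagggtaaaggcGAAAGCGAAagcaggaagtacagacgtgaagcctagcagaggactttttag
PSME1, chr14:24135974-24136223, plus strand: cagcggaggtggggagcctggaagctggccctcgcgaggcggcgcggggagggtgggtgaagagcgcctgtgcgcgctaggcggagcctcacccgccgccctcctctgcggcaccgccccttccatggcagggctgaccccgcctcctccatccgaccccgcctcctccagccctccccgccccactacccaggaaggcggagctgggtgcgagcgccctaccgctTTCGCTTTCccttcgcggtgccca
PSME2, chr14:24146581-24146830, minus strand: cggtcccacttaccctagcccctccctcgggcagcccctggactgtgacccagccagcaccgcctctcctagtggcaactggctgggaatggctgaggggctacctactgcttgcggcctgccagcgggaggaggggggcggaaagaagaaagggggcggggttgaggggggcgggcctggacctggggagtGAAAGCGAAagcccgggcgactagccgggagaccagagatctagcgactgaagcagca
PSMG4, chr6:3258727-3258976, plus strand: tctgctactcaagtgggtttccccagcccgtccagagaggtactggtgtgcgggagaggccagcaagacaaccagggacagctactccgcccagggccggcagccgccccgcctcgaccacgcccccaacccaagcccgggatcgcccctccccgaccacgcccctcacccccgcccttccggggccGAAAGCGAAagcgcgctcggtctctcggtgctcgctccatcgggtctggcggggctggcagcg

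The run begins 3 bases before the start of PSMB8, 21 before that of PSMB10 and 28 before that of PSME2. It begins 33 before that of PSMG4, and at base 7 after the start of PSME1. For PSMB8 and PSMG4 the start used lies inside the RefSeq gene, whose 5′ end is at chr6:32844679 and chr6:3254404. The other motifs were also searched on either strand. The core of the antioxidant response element, TGACNNNGC, which NRF1 and NRF2 bind, was in 29.4% of the 51 windows and in 13.3% of all windows. It was in 11 of the 33 higher genes and in 4 of the 7 lower ones. The gamma-activated site, TTCNNNGAA, was in 15.7% of the proteasome windows and in 7.66% of all, with 5 of the 33 higher and 2 of the 7 lower genes. The CCAAT box was in 39.2% and in 34.6%, with 17 of the 33 higher and 2 of the 7 lower genes. These splits were not tested. Windows of the same gene can overlap, so they are not independent.

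In the 19S particle, 16 of 17 genes were higher and 0 were lower, against 47.1% and 31.7% of the abundant genes. All 6 ATPases of its base, the ring that unfolds substrates, rose, by 0.23 (PSMC6) to 0.92 (PSMC3) on the log2 scale. PSMC3 had an FPKM of 213 and 200 with knockdown and of 109 and 108 with SCR (adjusted p = 5.79e-04). PSMC6 had 35.5 and 35.8 against 29.6 and 30.9, and with GC and length trends removed its log2 fold change was -0.12 (adjusted p = 0.0365), the opposite call. It did not pass without knockdown replicate 1 (adjusted p = 0.0756) or knockdown replicate 2 (0.0801). The other 3 base subunits were higher too. PSMD2, a scaffold of the base and the proteasome gene with the highest SCR level, had 434 and 450 against 310 and 309, and the ubiquitin receptor PSMD4 had 83.8 and 83.1 against 69.0 and 71.0. The log2 fold changes were 0.51 and 0.25, and the call of PSMD4 was lost without either knockdown replicate (adjusted p = 0.0531 without replicate 1 and 0.0508 without replicate 2) and with trends removed (0.11, adjusted p = 0.0663).

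The lid, which removes the ubiquitin chains, held both extremes of the 19S genes. PSMD8 had an FPKM of 304 and 309 with knockdown and of 125 and 123 with SCR. Its log2 fold change of 1.30 (SE 0.03, adjusted p = 2.55e-04) was the largest of the 46 genes. PSMD8 and PSMB7 were the 2 proteasome genes past the thresholds of the study, which 2.63% of all genes passed as higher and 4.06% as lower. With a pseudocount of 0.1, with the replicate number as a block or with any of the 4 libraries left out, 0 genes of the whole table passed those thresholds in limma, although 8700 to 10185 genes had an unadjusted p under 0.05. The deubiquitinase PSMD14 rose by 0.86, with 118 and 113 against 61.9 and 64.8. PSMD3 was the lid gene that did not rise. It had 84.5 and 81.7 against 88.5 and 88.8, a log2 fold change of -0.09 (SE 0.03, adjusted p = 0.0865), and PSMD3 passed as lower with median-ratio scaling (-0.14), quantile normalization (-0.19) and the eBayes trend of limma.

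The assembly chaperones of the base were also higher, as were 47.1% of the abundant genes. PSMD5 rose by 0.87, from an FPKM of 13.1 and 13.7 with SCR to 25.8 and 25.1, while PSMD9 rose by 0.43 and PSMD10 by 0.25. The call of PSMD10 was lost without knockdown replicate 1 (adjusted p = 0.140) or knockdown replicate 2 (0.152), and PSMD10 was at -0.037 with trends removed. Of the 4 chaperones of the 20S core, 2 were higher, a share near the 47.1% of the abundant genes. PSMG1 and PSMG2, which act together on the alpha ring, rose by 0.82 and 0.64. PSMG1 had 46.9 and 44.6 against 25.4 in both SCR libraries. PSMG3 and PSMG4, which form the second pair, did not pass 0.05. PSMG3 had 27.8 and 25.1 against 24.8 and 23.9, with a log2 fold change of 0.11 (adjusted p = 0.195). PSMG4 had 7.60 and 10.9 against 12.6 and 12.1. Its knockdown replicates stood apart more than those of any other proteasome gene in the plot by role, with a log2 fold change of -0.39 (SE 0.18, adjusted p = 0.139), and this was -0.63 (adjusted p = 0.0282) without knockdown replicate 2.

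PSMB8 and PSMB9 lie in the MHC region of chromosome 6, at chr6:32840717-32844679 and chr6:32854192-32859851 (RefSeq, GRCh38.p14), with the peptide transporter gene TAP1 between them, 529 bases from PSMB8 and 487 bases from PSMB9. PSME1 and PSME2 are also neighbours, 4402 bases apart on chromosome 14. PSMB10 lies on chromosome 16, at chr16:67934506-67936850. The deposited table lists PSMB3, PSMB8 and PSMB9 on alternate-haplotype sequences of GRCh38, and how reads that also match the primary chromosome were assigned is not given in the sources used here. The values of these 3 genes are uncertain for that reason. Without them 37 proteasome genes were higher and 1 was lower. GENCODE 29 names 30 pseudogenes after 10 of the 48 genes, among them PSMB7, PSMD8 and PSME2, and reads shared with such copies cannot be told apart here. Without these 10 genes, 29 of 36 were higher, 3 were lower and 0 passed the thresholds of the study. Among the abundant genes 47.1% were higher and 31.7% lower. In 25 of the 48 genes the GENCODE 29 gene overlaps a gene on the opposite strand (in PSMB8, for example, the antisense gene PSMB8-AS1, and in PSMB9 the gene TAP1), and whether the counting was strand-specific is not given in the sources used here.

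Genes that work with the proteasome under other symbols moved in the same direction as its core. Of 11 such genes 10 were higher and 0 were lower at 0.05, with a median log2 fold change of 0.40. Over all genes 30.8% were higher and 27.1% lower, and among the abundant genes 47.1% and 31.7%. ADRM1, a ubiquitin receptor of the 19S base, had an FPKM of 252 and 244 with knockdown and of 127 and 119 with SCR, a log2 fold change of 1.01 (SE 0.05, adjusted p = 5.77e-04). POMP, the maturation factor of the 20S core, had 69.9 and 66.4 against 33.8 and 36.3, and rose by 0.94, or by 0.54 with GC and length trends removed. SEM1, a small lid subunit, rose by 0.48. UBE3C, a ubiquitin ligase bound to the proteasome, was at 0.12 on the log2 scale and did not pass (adjusted p = 0.0639). Of 10 ubiquitin and shuttle genes 9 were higher and 0 were lower. RPS27A, which encodes ubiquitin fused to a ribosomal protein, rose by 0.77, or by 0.46 with those trends removed. UBQLN4, a shuttle factor, did not pass (0.05, adjusted p = 0.642).

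The transcription factor NRF1, encoded by NFE2L1, raises the expression of proteasome genes when proteasome activity is short. Its transcript moved against theirs. NFE2L1 had an FPKM of 73.9 and 75.7 with knockdown and of 139 and 137 with SCR, a log2 fold change of -0.88 (SE 0.03, adjusted p = 3.99e-04). NRF1 is controlled largely as a protein, which was not measured here. Of the 8 genes of its route 5 were higher and 1 was lower, against 30.8% and 27.1% of all genes. Among the abundant genes, where all of the route but DDI2 lie, the shares were 47.1% and 31.7%. NGLY1, which removes the sugar chains of NRF1, rose by 0.56, the protease gene DDI2 by 0.15 and VCP, which draws NRF1 out of the endoplasmic reticulum, by 0.18. MAFF and MAFG, small MAF partners, rose by 0.68 and 0.37. NFE2L2, which encodes NRF2, stood at 0.06 on the same scale (adjusted p = 0.138).

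The genes that handle the peptides after the proteasome were lower in part. Of 7 genes for the supply of MHC class I, 4 were lower and 1 was higher. The shares of all genes were 27.1% lower and 30.8% higher, and those of the abundant genes 31.7% and 47.1%. TAP1 had an FPKM of 24.1 and 24.8 with knockdown and of 28.9 and 27.8 with SCR, or -0.20 in log2 (adjusted p = 0.0152). The call of TAP1 was lost with any of the 4 libraries left out (adjusted p = 0.0582 to 0.0985) and in treat against a fold change of 1.2, and its value was -0.13 with GC and length trends removed. TAPBP, which encodes tapasin of the loading complex, had 41.3 and 43.8 against 107 and 105, a log2 fold change of -1.30 (SE 0.04, adjusted p = 3.64e-04). NLRC5, the transactivator of MHC class I genes and of PSMB9, had 5.17 and 5.72 against 8.60 and 8.38, or -0.56 in log2 (adjusted p = 0.00268). The call of NLRC5 was lost without SCR replicate 1 (adjusted p = 0.0688) or SCR replicate 2 (0.0637), and its value was -0.35 with trends removed. ERAP2, a peptide-trimming enzyme, was the gene that rose, by 0.21, a call lost without knockdown replicate 1 (adjusted p = 0.111) or knockdown replicate 2 (0.102), and its value was 0.13 with trends removed. TAP1 and TAPBP lie in the MHC region, where near-identical haplotype copies make read assignment uncertain.

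Interferon response genes did not move in a single direction. Of 17 genes 6 were higher and 7 were lower, with a median log2 fold change of 0.01. All genes tested also went both ways, with 30.8% higher, 27.1% lower and a median of 0.01. STAT2 and IRF9, which act together in the type I interferon response, had log2 fold changes of -0.57 and -0.59. IRF1, an activator of the immunoproteasome genes, had an FPKM of 10.7 and 10.9 against 10.98 and 10.4, and did not differ beyond its spread (0.02, adjusted p = 0.772). GBP1 and GBP2, guanylate-binding proteins induced by interferon gamma, were lower, with log2 fold changes of -1.33 and -1.71. IFIT1 and IFIT3 were lower too, at -0.53 and -0.14. Called higher from the same list were ISG15 at 0.21, OAS1 at 0.36, JAK1 at 0.24 and IRF2 at 0.22. OAS1 and IFIT1 had low levels, with an FPKM of 0.74 to 1.28 for OAS1 and of 0.69 to 1.73 for IFIT1. The interferon gamma receptor gene IFNGR2 had a log2 fold change of -0.74, while IFNGR1 rose by 0.20.

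**Figure D4:**
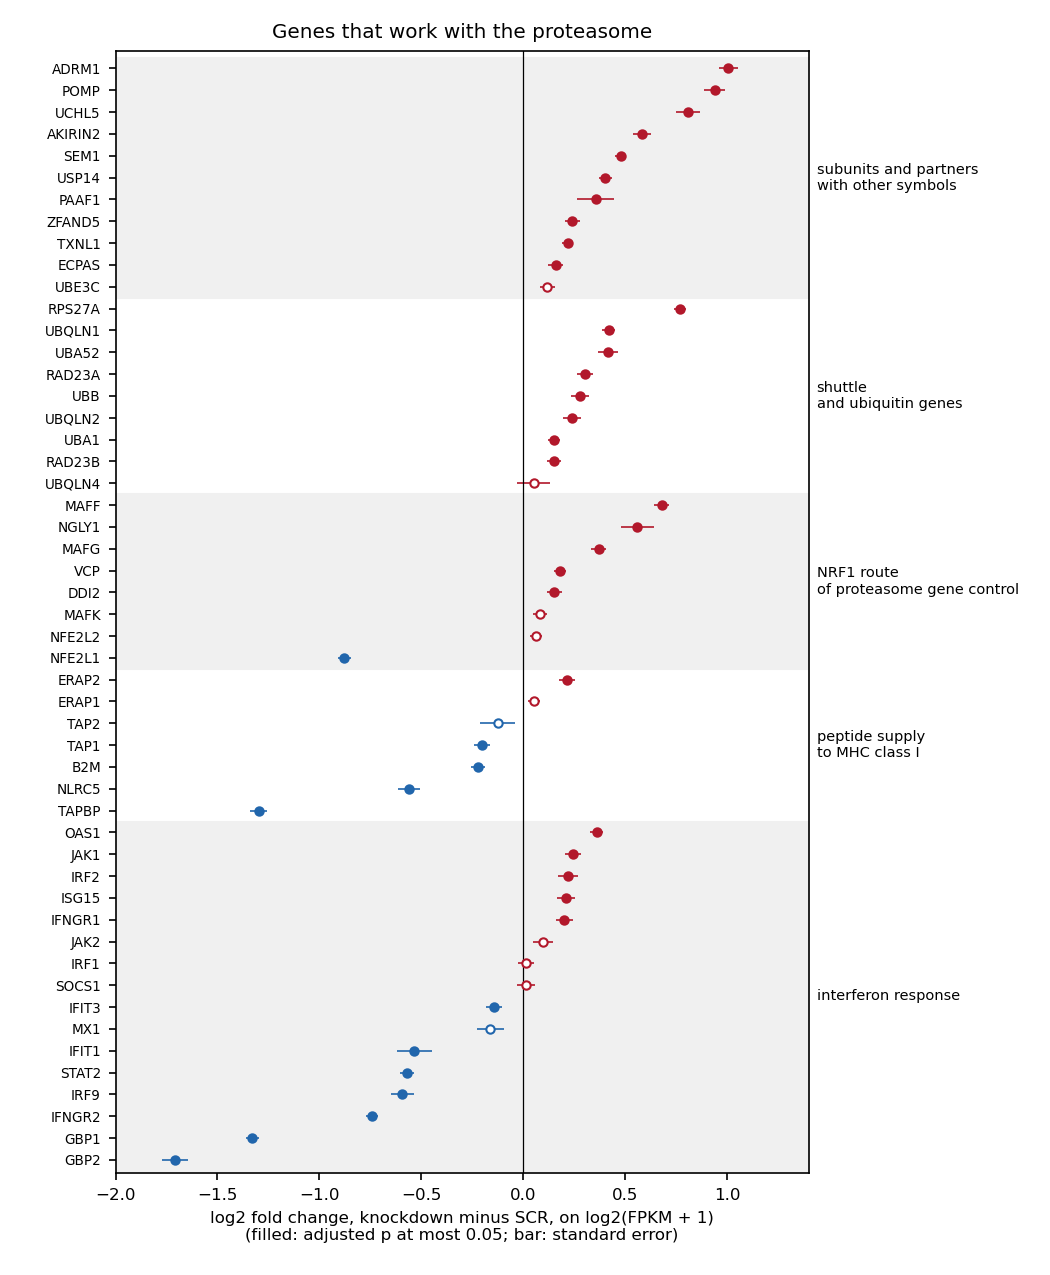
Log2 fold change (knockdown minus SCR on log2(FPKM + 1)) with its SE for most of the listed genes that work with the proteasome, grouped by list. Filled points passed an adjusted p of 0.05, and red and blue mark positive and negative values. The partner and ubiquitin genes lie to the right of 0, NFE2L1 and TAPBP lie to the left at -0.88 and -1.30, and the interferon genes spread on both sides.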

How the data were processed

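RNA from U87 cells was sequenced on a BGISEQ-500 with single-end reads of 50 bases. FPKM values per gene and library were deposited by the authors in 2 tables, with 0 of 66380 values differing between them. The submitters' processing notes name HISAT2 (version 2.1.0) and hg19, but 97.5% of gene positions lay within 1000 bases of RefSeq on GRCh38, so positions were read as GRCh38. The counting program is not given in the sources used here. Columns with the authors' comparisons (log2 fold changes, p-values and q-values) were not used. The 16595 genes above 0 in any library were fitted with limma (version 3.58.1, R 4.3.3; lmFit and eBayes, default options) on log2(FPKM + 1), with no term but the group. Benjamini-Hochberg adjustment covered all genes tested. Each gene had 3.72 degrees of freedom. The fit was also run on simulated data with independent noise between libraries and few changed genes. Those settings differ from these data, so the run gives no error rate for them. Depth was estimated from 623 to 656 low FPKM values per library, of at least 0.05 and in single-transcript genes. The depth and a length trim were chosen to bring these values closest to whole reads. Then 81.4% to 85.1% lay within 0.2 of a whole read, a share that the choice itself raised.

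Named genes were PTPRN, members past the thresholds of the study, the catalytic pairs, PSME1, PSME2, the extremes of each role and companion list (mean FPKM of at least 1), members that did not pass 0.05, and TAP1, IRF1, NFE2L1, NLRC5 and POMP. Others were named after their values were seen. A few genes of these lists are not reported here. The members and lists were chosen with earlier results of these data known. Alternatives were a filter on low values (FPKM of 1 in 2 libraries), a pseudocount of 0.1, median-ratio and quantile scaling, an eBayes trend, the replicate number as a block, treat against a fold change of 1.2 and leaving out each library. Removal of GC and length trends (loess, span 0.5, 11230 genes whose mean FPKM reached 1), a fit of those genes with the trends kept and the sets without pseudogene-named or alternate-haplotype genes were added after seeing the data.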

Additional observations from a re-analysis of the deposited data

How the results depend on the processing

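PTPRN and the 3 catalytic ratios kept their direction under every alternative that was run. Of the 9 reversals among single named genes, PSMB4 was at -0.0068 with quantile normalization and -0.11 with GC and length trends removed. In the same trend-removed fit PSMA6 was at -0.035, PSMC6 at -0.12 and PSMD10 at -0.037. IRF1 was at -0.028 with median-ratio scaling, and from -0.019 (without SCR replicate 2) to 0.049 with a library left out. UBQLN4 ranged from -0.028 to 0.13 with a library left out and was below 0 without knockdown replicate 2 or SCR replicate 1.

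Proteasome genes called higher numbered 25 in treat against a fold change of 1.2, and 28 to 38 in the other fits of all 4 libraries. In treat 16.8% of all genes were called higher and 15.2% lower. Proteasome genes called lower numbered 6 with the minimum FPKM, median-ratio scaling, quantile normalization or the eBayes trend. In these fits 35.7%, 29.1%, 27.0% and 27.3% of all genes were lower. In the 11230 genes of the trend fit, 6 proteasome genes were lower with trends kept and 7 with trends removed (35.3% and 38.5% of all). Only 1 proteasome gene was lower in treat, and 1 without alternate-haplotype genes. Those past the thresholds of the study numbered 1 with quantile normalization or trends removed, and 0 with a pseudocount of 0.1, the replicate block, a library left out (0 to 0) or without pseudogene-named genes. Over all genes, 5320 were called at 0.05 in treat and 6181 to 6332 with a library left out, against 9603. The 1111 genes past the thresholds of the study became 0 with a pseudocount of 0.1 (10185 had an unadjusted p under 0.05), with the replicate block (10108) and with a library left out (0 to 0, with 8700 to 8790 at an unadjusted p under 0.05).

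The log2 ratio of PSMB8 to PSMB5 differed by -0.62 with quantile normalization and -0.61 with trends removed, and that of PSMB10 to PSMB7 by -1.21 and -1.14. The median of the members without the immunoproteasome subunits, 0.51, was 0.46 with median-ratio scaling, 0.40 with quantile normalization, 0.30 with trends removed and 0.49 to 0.51 with a library left out. The causes of these changes were not tested.

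Replicate numbers are shared between groups, but the correlation of same-numbered deviations was 0.06 over genes whose mean FPKM reached 1, and nothing says that a number pairs libraries. With the replicate block 36 proteasome genes were higher and 3 lower (29.5% and 25.6% of all genes), and PTPRN was at -2.74. Depth limits PSMG4 most, at about 123 reads.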
